A study of Mus musculus with 4 samples.

Results

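The 10 melanocyte genes described here were Pmel, Tyr, Tyrp1, Dct, Mlana, Mitf, Sox10, Slc45a2, Gpr143 and Trpm1, chosen by name for their role in pigment cells, and all 10 were found among the 55367 genes of the tables. They were measured in 4 mouse libraries of polyadenylated RNA from B16-F10 tumors, 2 titled WT and 2 titled KO. B16-F10 is a pigmented mouse melanoma line, so the tumor cells themselves come from the melanocyte lineage, whereas the labels describe a sort of dissociated tumor for cells positive for both CD45.2, a surface protein of leukocytes, and CD8, the coreceptor of cytotoxic T cells. The series lists WT mice and mice with floxed Satb1 combined with ThPOK-cre, which acts in CD4 T cells, or with E8I-cre, which acts in mature CD8 T cells, but no label ties a KO library to either driver, and none gives the age or sex of an animal or says that libraries came from separate animals. All p-values therefore measure the spread between these libraries, which could be technical.

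Melanocytes make melanin inside melanosomes, organelles related to lysosomes. Pmel forms the fibrils on which pigment is laid down, Tyr (tyrosinase) starts the synthesis, and the related enzymes Tyrp1 and Dct work on later steps of it. Sox10 and Mitf are the transcription factors at the head of this program, and Mitf activates many pigment genes through a DNA motif called the M-box.

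The libraries held 4017875 and 4261025 gene counts in WT 1 and WT 2, and 4479734 and 5382915 in KO 1 and KO 2, so depth differed by at most 1.34 times. Neither Satb1 nor the T cell genes followed the labels. Satb1, the floxed gene of the series, was lower in the WT libraries (7 and 5 counts) than in the KO libraries (131 and 55 counts). In raw counts this was the opposite of the titles. Satb1 is expressed in T cells, and the counts on 10 T cell identity genes were also lower in WT (270 and 453) than in KO (10915 and 6636). Whether Satb1 differed for a given T cell content was not tested. Although CD8 cells were sorted, the 10 T cell identity genes summed to 0.00672% and 0.0106% of gene counts in WT and to 0.244% and 0.123% in KO, while 12 macrophage and monocyte genes summed to 2.95% and 4.0% in WT and to 2.29% and 2.87% in KO. Xist, transcribed from the inactive X chromosome, had 435 and 216 counts in WT and 0 and 3 in KO, whereas Uty, Kdm5d, Eif2s3y and Ddx3y, all on the Y chromosome, summed to 0 and 0 in WT and 416 and 255 in KO, so that sex and label cannot be told apart. KO is used below for the libraries labeled KO and WT for those labeled WT. If the titles had been exchanged, every direction given as KO against WT would turn, which was not tested.

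To show the DNA around the start sites of these genes, the promoter windows of RefSeq (GRCm38.p6) were searched for the M-box core TCATGTG on both strands. Windows ran from 250 bases before to 50 bases after a start site, and 5 of the 10 genes had at least 1, for 8 windows in all. The M-box core stood in 4 of these 8 windows, from Tyr, Tyrp1, Dct and Trpm1, against 3.77% of all 32851 windows of the same length. It began 22 bases before the start in Tyr, 47 in Tyrp1, 142 at the more upstream start of Trpm1, and 151 in Dct, which had a further copy on the opposite strand at 232 bases. The shorter E-box CATGTG, which lies inside the M-box core, was found in 14.15% of all windows, and the E-box CACGTG in 7.15%, among them the other Trpm1 window. None of the 3 Mitf windows held the M-box core, but the window of the most downstream start held the cAMP response element TGACGTCA, present in 1.79% of all windows, 153 bases before the start. The 10 bases GTCATGTGCT, the longest run common to the Tyr, Tyrp1 and Dct windows and chosen after these had been compared, occurred in 61 windows, or 0.186%. A match describes the letters of these windows only. The 250 bases before the start are shown for the 3 melanin enzymes, for Trpm1 and for Mitf, written along the gene's own strand, with the M-box core (either strand) or, in Mitf, the cAMP response element in capitals. Their positions were chr7:87493513-87493762 on the minus strand for Tyr, chr4:80833963-80834212 on the plus strand for Tyrp1, chr14:118052247-118052496 on the minus strand for Dct, chr7:64153585-64153834 on the plus strand for Trpm1 and chr6:97991533-97991782 on the plus strand for Mitf.
Tyr: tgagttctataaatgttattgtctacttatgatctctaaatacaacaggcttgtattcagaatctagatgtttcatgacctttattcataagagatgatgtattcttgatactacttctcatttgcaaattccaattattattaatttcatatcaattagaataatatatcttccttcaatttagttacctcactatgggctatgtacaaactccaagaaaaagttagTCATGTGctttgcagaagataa
Tyrp1: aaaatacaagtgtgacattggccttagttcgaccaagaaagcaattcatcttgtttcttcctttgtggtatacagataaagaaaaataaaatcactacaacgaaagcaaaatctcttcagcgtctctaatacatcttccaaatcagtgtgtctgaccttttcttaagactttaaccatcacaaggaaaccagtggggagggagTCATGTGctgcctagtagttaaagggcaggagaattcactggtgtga
Dct: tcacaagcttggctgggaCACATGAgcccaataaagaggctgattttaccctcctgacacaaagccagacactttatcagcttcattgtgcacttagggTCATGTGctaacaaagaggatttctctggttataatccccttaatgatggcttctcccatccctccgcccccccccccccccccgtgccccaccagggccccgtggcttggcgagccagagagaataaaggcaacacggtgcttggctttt
Trpm1: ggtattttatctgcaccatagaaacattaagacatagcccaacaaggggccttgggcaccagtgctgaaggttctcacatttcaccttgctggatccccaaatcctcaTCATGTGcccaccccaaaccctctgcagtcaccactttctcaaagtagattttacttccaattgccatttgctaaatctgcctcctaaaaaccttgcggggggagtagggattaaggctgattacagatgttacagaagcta
Mitf: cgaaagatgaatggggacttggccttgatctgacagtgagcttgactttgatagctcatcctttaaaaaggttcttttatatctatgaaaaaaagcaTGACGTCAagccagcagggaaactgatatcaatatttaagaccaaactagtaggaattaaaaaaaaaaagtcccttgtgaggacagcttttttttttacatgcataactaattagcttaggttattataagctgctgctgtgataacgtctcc

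The summed counts of the 10 genes were the broadest measure of the melanocyte program. They came to 933 and 1196 counts in WT and to 11027 and 7323 in KO. As a share of gene counts this was 0.0232% (exact binomial 95% interval 0.0218 to 0.0248) in WT 1, 0.0281% (0.0265 to 0.0297) in WT 2, 0.246% (0.242 to 0.251) in KO 1 and 0.136% (0.133 to 0.139) in KO 2. Both KO libraries lay above both WT libraries, the lower KO share being 4.85 times the higher WT share. The means were 0.0256% ± 0.00343 in WT and 0.191% ± 0.0779 in KO (SD, n = 2 each), a ratio of 7.45, and KO 1 and KO 2 differed more from each other than did WT 1 and WT 2. Intervals cover counting error only, and 2 libraries against 2 cannot give an exact two-sided permutation p below 0.333 for a single value such as this share. In bulk RNA, fewer cells of a type and less RNA per cell cannot be told apart.

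**Figure D1:**
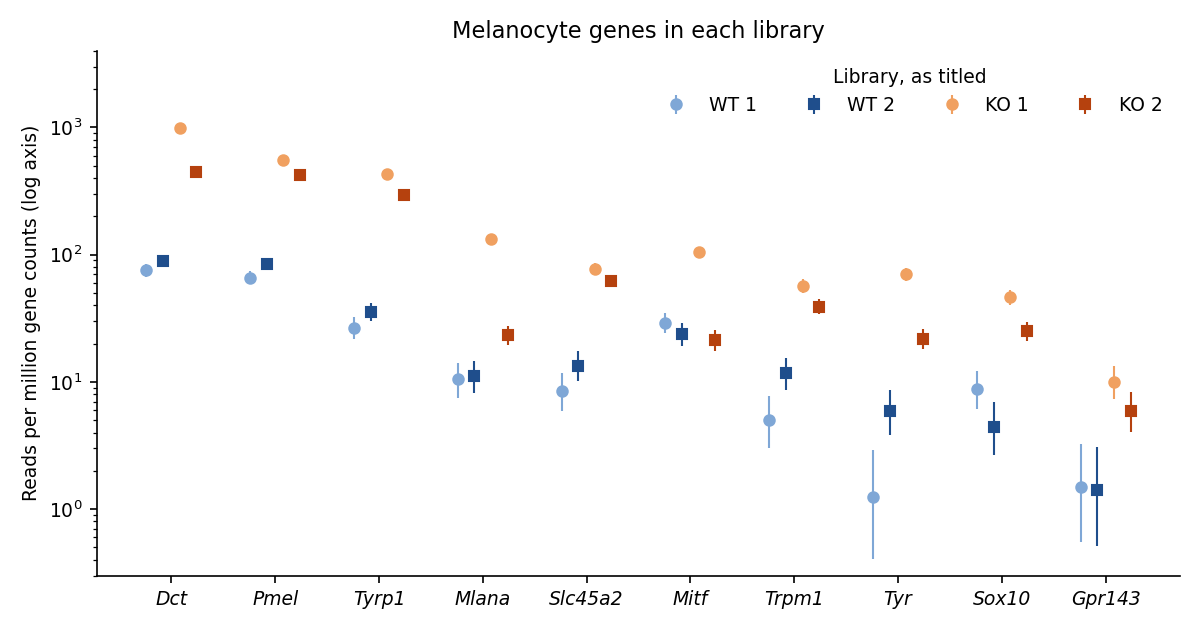
Counts per gene scaled to library total (CPM, log axis) of the 10 melanocyte genes, 1 point for each library. The WT points lie below the KO points for 9 genes, and for Mitf only KO 1, at 104, stands above the others, which lie between 21.4 and 29.1.

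Which of these genes differed between KO and WT by more than the libraries spread was tested with edgeR's quasi-likelihood test over all 11837 genes that passed a filter on low counts, with Benjamini-Hochberg adjustment and a threshold of 0.05. All 10 genes passed the filter and had a log2 fold change (KO minus WT) above 0, with a median of 2.36 against 0.05 over all genes tested. Past the threshold stood 1 of the 10, Tyrp1, which was higher in the libraries labeled KO, while 0.549% of all genes tested were called higher. At an unadjusted p under 0.05 there were 9, all but Mitf, against 9.44% of all genes tested that were higher in KO at that level. In 9 of the 10, again all but Mitf, both KO libraries lay above both WT libraries in CPM (counts scaled to a common total of gene counts), as they did in 35.9% of all genes tested. Other tests made more calls, both among these genes and in the background. edgeR's likelihood ratio test called 8 of the 10 and 4.02% of all genes higher, DESeq2 called 7 of the 10 and 2.96%, and the quasi-likelihood test without the filter called 8 of the 10 and 2.38% of 21241 genes. With a library left out, 1 group holds a single library, which the fit assumes to vary like the libraries of the other group, so such calls are not replicated. The quasi-likelihood test then called 0 of the 10 without WT 1, 1 without WT 2, 4 without KO 1 and 9 without KO 2. The calls over all genes moved as well, with 0.809%, 1.54%, 0.803% and 5.64% of the genes tested called higher in the same order.

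The melanin enzymes Tyr, Tyrp1 and Dct are members of the same family. Tyrp1 (chr4:80834123-80851719, plus strand), which stabilizes tyrosinase and oxidizes an intermediate of eumelanin, the black-brown pigment, had 26.6 and 35.4 CPM in WT and 433 and 293 CPM in KO. The 2 groups were far apart, with means of 31.0 ± 6.23 in WT and 363 ± 99.3 in KO (SD, n = 2 each). Tyrp1 was 9.25-fold higher in the libraries labeled KO, a log2 fold change of 3.21 (SE 0.47, adjusted p = 0.0292). Its fold change stayed between 2.97 and 3.37 on the log2 scale when any 1 library was left out, but the call was lost without WT 1 (log2 fold change 3.04, adjusted p = 0.254) and without WT 2 (3.27, adjusted p = 0.103).

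Dct (chr14:118012790-118052244, minus strand) converts dopachrome on the way to eumelanin and gave the most counts of the 10 genes in every library. It stood at 75.2 and 89.4 CPM in WT and at 980 and 444 CPM in KO. KO 1 was 2.21 times KO 2, and both were well above WT. The log2 fold change was 2.76 (SE 0.53, adjusted p = 0.0582 by edgeR), which missed the threshold, and it was 2.17 without KO 1 and 3.14 without KO 2.

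Tyr (chr7:87424771-87493512, minus strand), the rate-limiting enzyme of melanin synthesis, was the sparsest of the 3. It had 5 and 25 counts in WT and 314 and 117 counts in KO, or 1.24, 5.87, 70.1 and 21.7 CPM. The groups did not overlap, although WT 2 was 4.71 times WT 1 in CPM and KO 1 was 3.22 times KO 2. Its log2 fold change was the largest of the 10, at 3.35, with the second largest error (SE 0.79, adjusted p = 0.118), and it ranged from 2.37 without KO 1 to 4.64 without WT 2. Since the enzymes share ancestry, their transcripts were compared. The longest identical run was 46 bases over whole transcripts, between Dct and Tyr, and 18 bases in coding sequence, between Dct and Tyrp1, so reads of Dct and Tyr over the former could be shared or lost in counting.

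**Figure D2:**
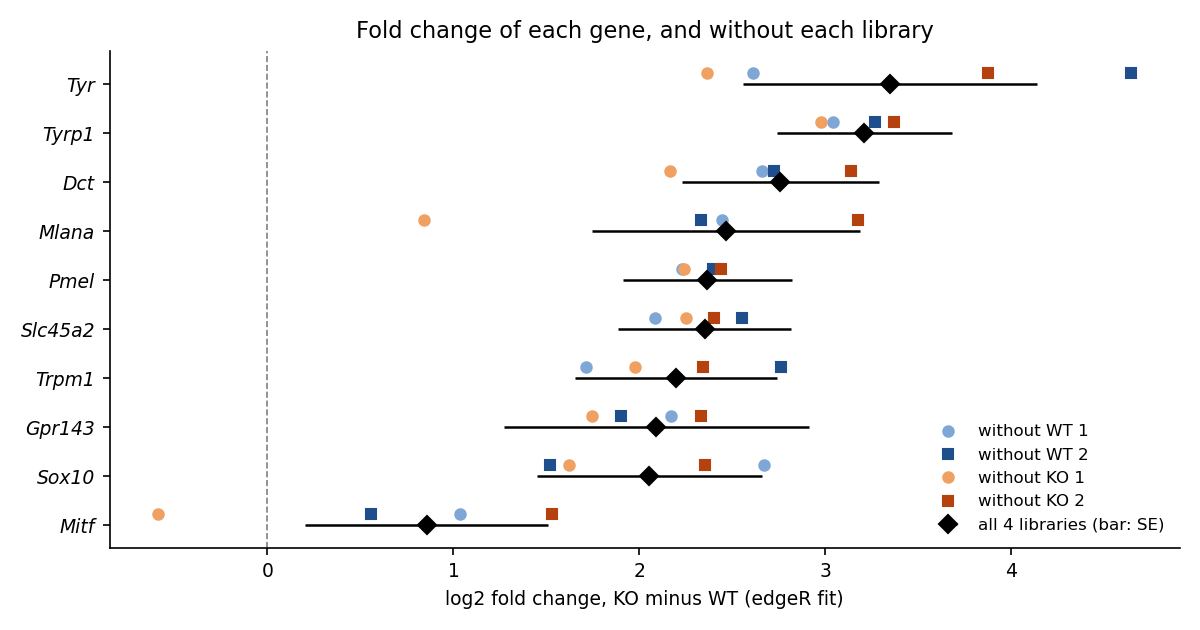
Log2 fold change (KO minus WT) of the 10 melanocyte genes from edgeR with its standard error, and the same value with each library left out in turn. Tyrp1, at 3.21, is past the adjusted threshold, and Mitf is the gene whose value crosses 0, at -0.59 without KO 1.

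Among the genes of melanosome structure, Pmel was high throughout. Pmel (chr10:128704195-128720238, plus strand) had 66.0 and 84.3 CPM in WT and 551 and 425 CPM in KO. It was the steadier of the abundant genes within KO, with KO 1 at 1.30 times KO 2, and the groups were clearly separate. The log2 fold change was 2.37 (SE 0.45, adjusted p = 0.0586 by edgeR), just short of the threshold. Of its exonic length 6.06% overlaps Cdk2 and Dgka on the other strand, and whether the counting used strand is not given in the sources used here.

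Mlana (chr19:29697824-29708634, plus strand), a small melanosome membrane protein that is a common marker of melanoma, had 10.5 and 11.0 CPM in WT and 132 and 23.2 CPM in KO. The WT libraries were nearly equal, whereas KO 1 was 5.69 times KO 2, the widest gap within KO of the 10 genes. Its log2 fold change of 2.47 (SE 0.72, adjusted p = 0.189) was 0.84 when KO 1 was left out and 3.18 when KO 2 was.

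The next genes encode a transporter, a channel and a receptor. Slc45a2 (chr15:11000721-11029233, plus strand), a melanosome transporter needed for normal pigmentation, had 8.46 and 13.4 CPM in WT and 77.7 and 62.2 CPM in KO. KO 1 and KO 2 differed by 1.25 times, the smallest gap of the 10 genes, and the log2 fold change was 2.35 (SE 0.47, adjusted p = 0.0624). Trpm1 (chr7:64153835-64269775, plus strand), a cation channel whose gene lies under Mitf control in melanocytes, had 4.98 and 11.7 CPM in WT and 56.7 and 39.0 CPM in KO, with a log2 fold change of 2.20 (SE 0.54, adjusted p = 0.134). Gpr143 (chrX:152781921-152808646, plus strand), a receptor of the melanosome membrane encoded on the X chromosome, had the fewest counts over the 4 libraries, with 6 and 6 counts in WT and 45 and 32 in KO, and a log2 fold change of 2.09 (SE 0.82, adjusted p = 0.308). None of these 3 passed the threshold. In each, both KO libraries lay above both WT libraries in CPM, as they did in 35.9% of all genes tested.

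The transcription factors were read in the same way. Sox10 (chr15:79154908-79165240, minus strand), which specifies neural crest cells and turns on Mitf, had 8.71 and 4.46 CPM in WT and 46.4 and 24.9 CPM in KO, with a log2 fold change of 2.05 (SE 0.60, adjusted p = 0.190). Both KO values were higher than both WT values, and the log2 fold change was 2.67 without WT 1 and 1.52 without WT 2. Mitf (chr6:97807052-98021349, plus strand), which is used by macrophages and osteoclasts as well as melanocytes, had 29.1 and 23.7 CPM in WT and 104 and 21.4 CPM in KO. KO 1 alone was high, and KO 2 was the lowest of the 4 libraries. The log2 fold change was 0.86 (SE 0.65, adjusted p = 0.587), it was -0.59 without KO 1 (adjusted p = 0.589), and without KO 2 it was 1.53 (adjusted p = 0.0391). The latter sets KO 1 alone against WT and is not a replicated call.

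Comparing the 10 genes with one another takes levels per length, here CPM per kilobase of exonic sequence. Pmel was the highest in every library, at 28.8 and 36.8 in WT and 240 and 186 in KO. Dct came next in WT 1, WT 2 and KO 1, and Tyrp1 came next in KO 2, at 103 against 75.3 for Dct. Mlana followed, or preceded Tyrp1 in WT 1, where the 2 genes stood at 9.89 and 9.42. In WT the ranges of Tyrp1 and Mlana overlapped, as did those of Mitf and Slc45a2, those of Slc45a2 and Sox10 and those of the 3 lowest genes, Gpr143, Trpm1 and Tyr. In KO the ranges of Tyrp1, Dct and Mlana overlapped, as did those of Mlana and Slc45a2, Sox10 and Mitf, Sox10 and Tyr, and the group of Mitf, Tyr, Gpr143 and Trpm1. The lowest level was that of Tyr in WT 1 (0.175), Gpr143 in WT 2 (0.706) and Trpm1 in KO 1 (3.85) and KO 2 (2.65).

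To see how the genes moved against each other irrespective of the total on the list, each was divided by Dct within its library. For Mitf the ratio was 0.387 (95% interval 0.310 to 0.481) and 0.265 (0.211 to 0.331) in WT, and 0.106 (0.0965 to 0.117) and 0.0481 (0.0395 to 0.0580) in KO. It was therefore lower in both KO libraries than in both WT libraries, outside the counting intervals, and its highest value was 8.05 times its lowest. Mitf took 12.5% and 8.44% of the counts on the 10 genes in WT, and 4.24% and 1.57% in KO.

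Tyrp1 showed the opposite order, with ratios to Dct of 0.354 (0.281 to 0.443) and 0.396 (0.326 to 0.480) in WT and 0.442 (0.419 to 0.466) and 0.659 (0.618 to 0.702) in KO. The values did not overlap between groups, but the interval of KO 1 overlapped those of WT 1 and WT 2. For Pmel the ratio was 0.877 and 0.942 in WT and 0.562 and 0.957 in KO, so KO 1 stood apart. For Mlana it was 0.139, 0.123 and 0.135 in WT 1, WT 2 and KO 1, with KO 2 alone lower at 0.0523 (0.0433 to 0.0626). Tyr in WT 1, at 0.0166 (0.00534 to 0.0391), was low against 0.0656, 0.0715 and 0.0489 in WT 2, KO 1 and KO 2. Gpr143 had lower ratios in KO than in WT, but with 6 counts in each WT library the intervals overlapped, and Sox10, Slc45a2 and Trpm1 overlapped between groups. The highest ratio was 1.70 to 2.66 times the lowest for the 7 genes other than Dct, Mitf and Tyr, and 4.32 times for Tyr. These ratios were not tested.

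**Figure D3:**
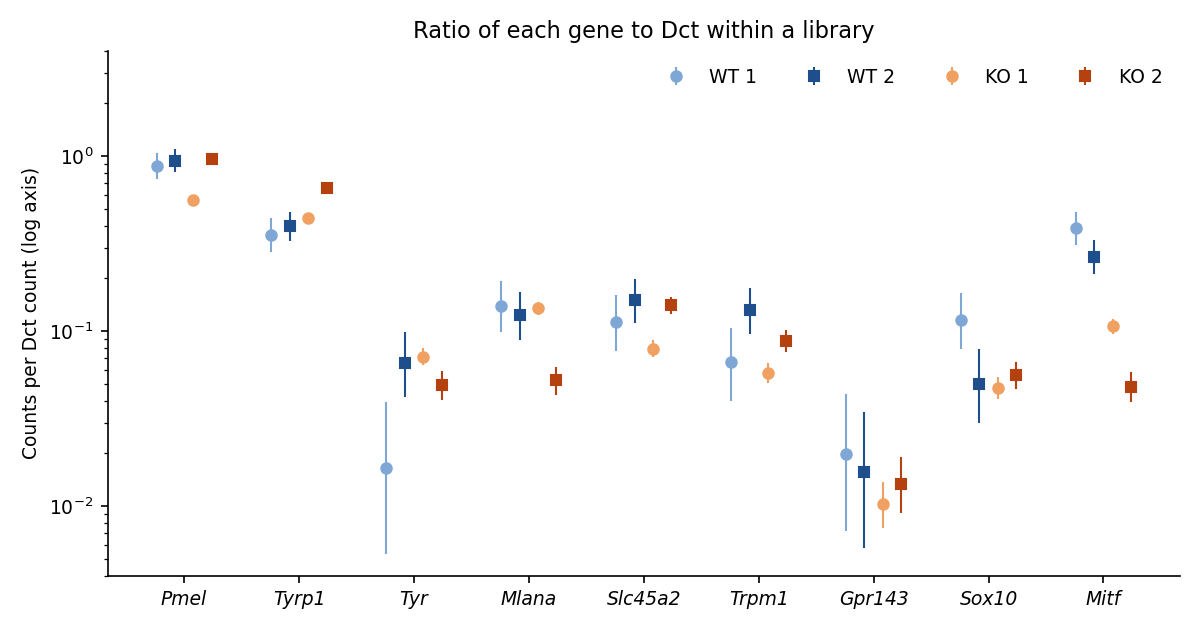
Counts of each gene per Dct count within a library (log axis), with exact binomial 95% intervals. Mitf lies between 0.265 and 0.387 in WT and between 0.0481 and 0.106 in KO, and Mlana in KO 2 stands below its other 3 points.

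Markers of other cell types are given here beside the melanocyte genes. All 10 T cell identity genes had higher CPM in both KO libraries than in both WT libraries, as had 35.9% of all genes tested. Of the 10, 9 were past the threshold and higher in KO, against 0.549% of all genes tested. Their summed share in KO was 21.1 times that in WT, with no marker at 0 in any library. Cd8a had 24 and 28 counts in WT and 843 and 733 in KO. Of the 12 macrophage and monocyte genes none passed, 10 had log2 fold changes below 0, and none was at 0 counts. In 6 of them both KO libraries lay below both WT libraries in CPM, against 12.6% of all genes tested, and in 1, Mrc1, above. At an unadjusted p under 0.05 by edgeR stood 4 of the 12, against 13.7% of all genes tested. The 8 dendritic cell genes summed to 0.00645% and 0.0111% in WT and 0.0544% and 0.0424% in KO, with 1 of 6 tested past the threshold. This was Ccr7, which T cells also express, and which gave 1363 of the 2435 counts on the list in KO 1 and 1574 of 2284 in KO 2. The 7 fibroblast and endothelial genes summed to 0.00207% and 0.00192% in WT and 0.148% and 0.0204% in KO, with 3 of 5 tested past it, the collagen genes Col1a1, Col1a2 and Col3a1. Dcn and Pdgfra were at 0 in both WT libraries. The endothelial genes on the list had other values, Pecam1 with 51 and 63 counts in WT and 70 and 124 in KO (log2 fold change 0.18, adjusted p = 0.912) and Cdh5 with 1 and 6 against 1 and 1.

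Set against these lists, the summed melanocyte counts gave different orders. Per T cell count they were 3.46 and 2.64 in WT and 1.01 and 1.10 in KO, thus lower in KO. Per macrophage count they were 0.00787 and 0.00701 in WT and 0.107 and 0.0474 in KO, thus higher in KO. Ptprc, which encodes the CD45 used in the sort, had 135 and 694 counts in WT and 2151 and 1067 in KO. Per Ptprc count the melanocyte counts were 6.91 and 1.72 in WT and 5.13 and 6.86 in KO, and the groups overlapped. Per fibroblast or endothelial count they were 11.2 and 14.6 in WT and 1.66 and 6.66 in KO. KO 1, which had the higher level of all 10 melanocyte genes, also had the higher T cell and fibroblast shares of the KO libraries. The part of the other cell types in the melanocyte values was not tested.

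**Figure D4:**
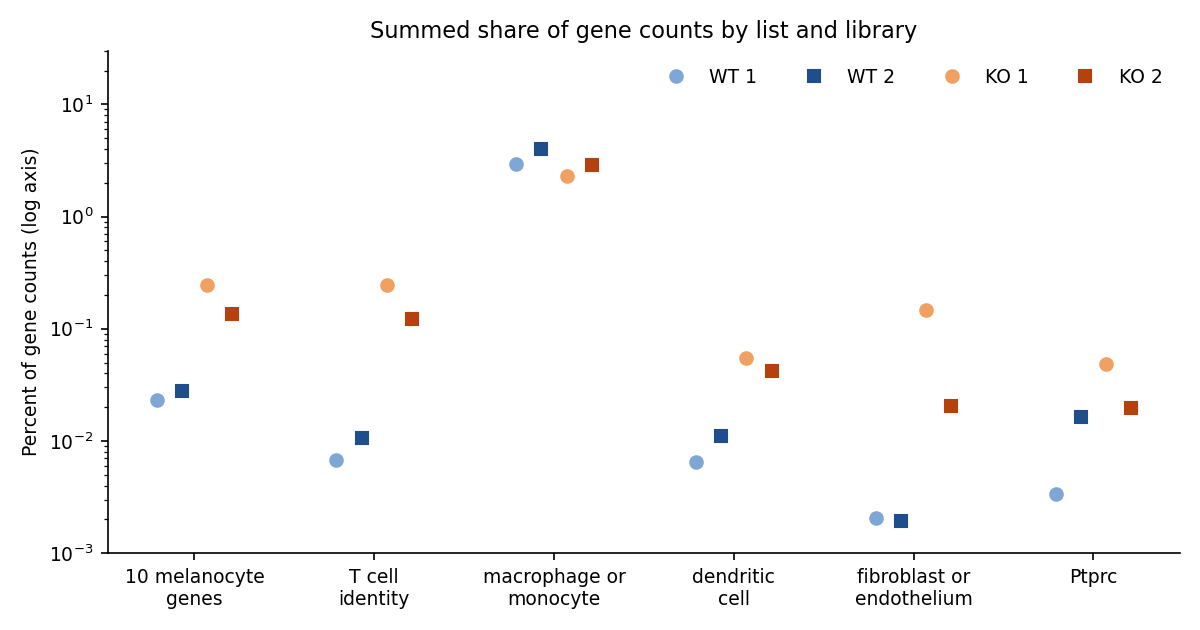
Summed share of gene counts (percent, log axis) of the 10 melanocyte genes and of the marker lists in each library. The melanocyte share is 0.0232% and 0.0281% in WT and 0.246% and 0.136% in KO, and of the summed shares plotted the macrophage and monocyte share alone is lower in both KO libraries, at 2.87% in KO 2 against 2.95% in WT 1.

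The wider pigment pathway was read from 4 further lists of 62 genes, of which 44 passed the filter and 0 passed the adjusted threshold by the quasi-likelihood test, with 13 (12 higher and 1 lower in KO) at an unadjusted p under 0.05, a level that 13.7% of all genes tested reached in either direction. DESeq2 called 3 of the 44 and the likelihood ratio test 4, all higher, where they called 2.96% and 4.02% of all genes higher. With 1 library in a group, the quasi-likelihood test called 0 of 51 pathway genes without WT 1, 2 of 51 without WT 2 and 1 of 44 without KO 1, all higher, beside 0.809%, 1.54% and 0.803% of all genes. Without KO 2 it called 8 of 50 higher and 4 lower, beside 5.64% and 4.08% of all genes. Of the 44 genes 20 had more CPM in both KO libraries than in both WT libraries and 9 had less, the shares over all genes tested being 35.9% and 12.6%. Their log2 fold changes were above 0 in 28 and below 0 in 16, with a median of 0.48. Melanosome maturation and transport, the cargo sorting and movement of the organelle, had 14 of 24 above 0 and a median of 0.39. Its 3 genes of highest level per length were Cd63, a tetraspanin of late endosomes that helps sort Pmel, Gpnmb, a Pmel relative, and Rab32, a GTPase of cargo delivery. Cd63 had 2436 and 2279 counts in WT and 1769 and 2025 in KO (log2 fold change -0.91, adjusted p = 0.420), Gpnmb had 3552 and 1201 against 1321 and 3215 (-0.75, adjusted p = 0.654), and Rab32 had 365 and 586 against 421 and 573 (-0.50, adjusted p = 0.629). In none of these 3 were both KO libraries above both WT libraries in CPM, as they were in 9 of the 10 melanocyte genes. On the whole melanosome list this held for 10 of 24 genes.

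Of the regulators, receptors and ligands of melanocytes 11 of 19 were tested, 10 of them above 0, with a median of 1.66. By level the leading ones were Usf1, a factor that binds the same E-boxes, with 158 and 193 counts in WT and 105 and 161 in KO (log2 fold change -0.99, adjusted p = 0.373), Ednrb, the endothelin receptor of melanoblasts, with 35 and 101 against 26 and 880 (2.15, adjusted p = 0.441), and Met, the receptor for hepatocyte growth factor, with 38 and 53 against 267 and 155 (1.66, adjusted p = 0.223). Ednrb was high in KO 2 alone, the reverse of Mitf. The largest log2 fold changes of the list, picked after their values were seen, came from genes with few WT counts. Pax3 had 0 and 2 counts in WT and 52 and 13 in KO (4.38, adjusted p = 0.210 by edgeR). Kit had 0 and 5 against 88 and 60 (4.32, adjusted p = 0.129), and Lef1 1 and 5 against 76 and 76 (4.08, adjusted p = 0.0778). The Mitf-related factors Tfe3, Tfeb and Tfec, which bind like sites, all had log2 fold changes below 0, at -0.73, -0.95 and -0.22. Tfe3, the most abundant of them, had 650 and 561 counts in WT and 287 and 845 in KO. The melanoma and neural crest markers had 6 of 16 tested, 4 above 0 and 2 below, with a median of 0.63. Those of highest level were S100a1, Ptgds and Syngr1, which include the 2 below 0. S100a1 had 292 and 356 counts in WT and 239 and 324 in KO (-0.79), and Syngr1 had 364 and 120 against 188 and 156 (-1.14). Ptgds, a prostaglandin synthase, had 67 and 91 against 295 and 239 (1.2). The remaining tested markers Alcam, Cdh1 and L1cam had log2 fold changes of 1.38, 1.47 and 0.07.

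**Figure D5:**
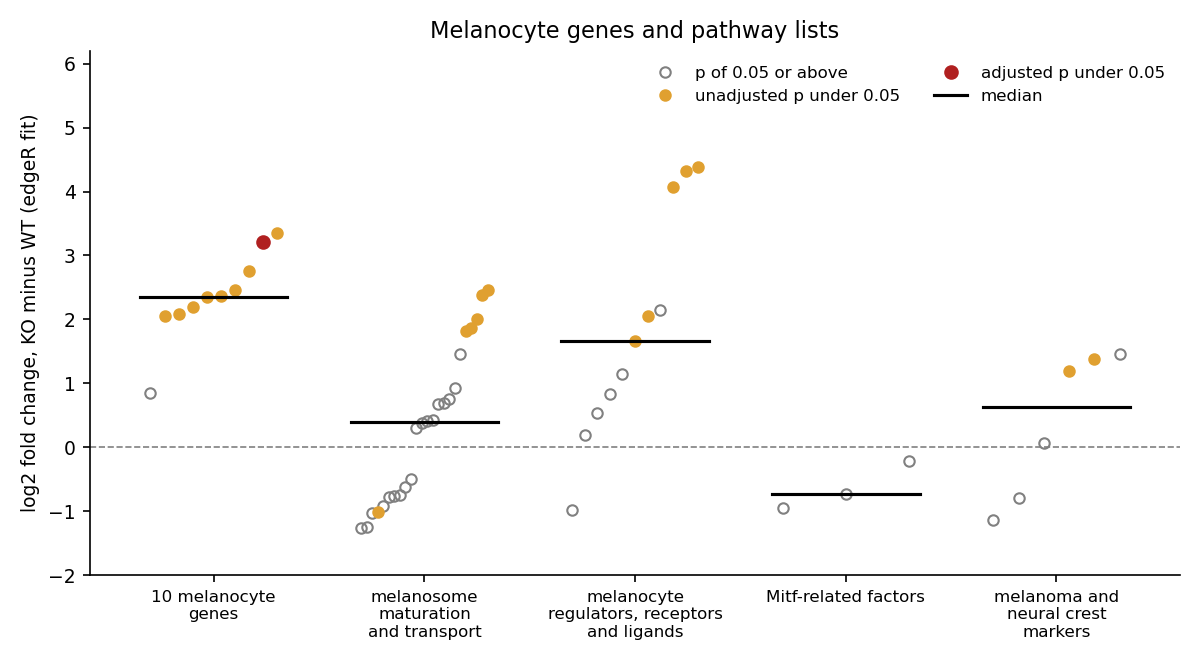
Log2 fold change (KO minus WT) of every tested gene of the 10 melanocyte genes and of the 4 pathway lists, with the median of each as a bar. The red point is Tyrp1, the bars stand at 2.36, 0.39, 1.66, -0.73 and 0.63, and no gene of the pathway lists is past the adjusted threshold.

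The genes whose pattern was most like the summed melanocyte counts were found over the 4 libraries by the standard deviation (SD) of the log2 ratio of each gene to that sum, among 10309 other genes with a mean of at least 20 counts. They were Zfp266 (SD 0.0949), Nkg7 (0.113), Ttc3 (0.139), Ulbp1 (0.174) and Tfdp2 (0.180). The WT counts were only 6 and 8 for Zfp266, 19 and 24 for Ttc3, 4 and 4 for Ulbp1 and 7 and 8 for Tfdp2. The SD takes no account of counting error, so the place of these genes in the order is not firm. Nkg7, a granule gene of cytotoxic lymphocytes, had 192 and 260 counts in WT and 2732 and 1654 in KO. By the same measure Dct was at 0.152 and Pmel at 0.216, both of which contribute most to the sum, and Slc45a2 at 0.281 and Gpr143 at 0.290, which contribute little. Mlana was at 0.733, Tyr at 1.05 and Mitf at 1.31, so that some genes outside the list followed the sum more closely than several on it. With 4 libraries this describes these samples only.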

How the data were processed

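RNA was measured in 2 libraries titled WT and 2 titled KO. Per the submitters' processing notes, reads were aligned with HISAT2 2.1.0 to mm10 and counted with HTSeq 0.11.0. The authors deposited raw read counts per gene; the annotation and strand setting are not given in the sources used here. Rows that name no gene held 79.5%, 77.2%, 77.7% and 71.2% of reads in WT 1, WT 2, KO 1 and KO 2 and were left out. Counts were fitted in R 4.3.3 with edgeR 4.0.16: filterByExpr (10 counts, 15 in total), TMM scaling, the quasi-likelihood F test fitting group alone over the 4 libraries, two-sided, Benjamini-Hochberg over all genes tested, threshold 0.05, prior count 0.125. CPM were counts scaled to each library's summed gene counts, without TMM factors. Shares had exact Clopper-Pearson 95% intervals. Identifiers, positions and exon lengths came from GENCODE M21 (GRCm38, 53292 symbols matched), 1-based. The fit was tested on simulated data.

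The members and lists were chosen with earlier results of these data known. Named were all 10 members, the 3 pathway genes of highest level per list with any past the threshold, the 5 genes of at least 20 mean counts closest to the summed members, and Satb1 and Ptprc. Other genes were chosen after their values were seen. Alternatives were other scaling factors, no filter, DESeq2 1.42.0, the likelihood ratio test, a prior count of 2, a replicate block and each library left out.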

Additional observations from a re-analysis of the deposited data

How the results depend on the processing

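All 10 melanocyte genes kept a log2 fold change above 0 under every alternative tried, except that Mitf reversed to -0.59 without KO 1. Calls depended on the method: of the 10 genes, 1 passed, against 4 with total gene counts only, 8 without a filter, 7 with DESeq2, 8 with the likelihood ratio test, 5 with a replicate block and 8 with a crossed one, and from 0 to 9 with 1 library left out (0 without WT 1, 1 without WT 2, 4 without KO 1, 9 without KO 2, each with 1 library in a group). Over all genes the count was 68, against 136, 583, 416, 556, 215 and 647 in the same order, and 113 to 1249 with 1 library left out. Of the pathway genes 0 passed, against 6 without a filter, 3 with DESeq2, 4 with the likelihood ratio test, 3 with the block, 5 with the crossed block and 0 to 12 with 1 library left out. The cause was not tested. Upper-quartile and median-of-ratios factors changed none of these counts by over 1.5 times. Scaling by total gene counts moved the median of all genes by 0.33 on the log2 scale. The labels do not say what a replicate number marks, and deviations of same-numbered libraries had a correlation of -0.18, so the crossed block was added after seeing the data. Dividing by length rescales a gene's ratio to Dct by 1 factor in all libraries, so the order of libraries is kept. Without Dct the mean share was 0.0174% in WT against 0.0256%, and 0.120% in KO against 0.191%. Gpr143 and Tyr rest on few WT counts, which limits their precision.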

Other observations

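Of the 44 tested genes of the pathway lists, 20 had more CPM in both KO libraries than in both WT libraries, against 35.9% of all genes tested, and 9 had less, against 12.6%. Of the melanosome list alone, 10 had more and 6 less, the latter being Cd63, Tpcn2, Hps4, Ap3d1, Bloc1s3 and Bloc1s5. The 6 genes that follow are among the 20 with more, chosen after their values were seen. Slc24a5, an ion exchanger of the melanosome, had 36 and 37 counts in WT and 400 and 197 in KO (log2 fold change 2.47, adjusted p = 0.0939 by edgeR). Oca2, another melanosome transporter, had 6 and 3 against 32 and 41, and Mc1r, the melanocortin receptor that drives pigment synthesis, 8 and 9 against 67 and 38. Of the genes of melanosome movement, Rab27a had 13 and 19 against 139 and 49, Mlph 26 and 9 against 91 and 102, and Rab38 14 and 37 against 171 and 96. Myo5a, the motor that Rab27a and Mlph recruit, had 53 and 119 against 329 and 138, and its groups overlapped in CPM. None of these genes passed the threshold.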
